A study of Mus musculus with 8 samples.

Results

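The genes described here are the Rab GTPases, the largest family of small GTP-binding proteins and the switches that give each membrane compartment of a cell its identity. They were taken as every protein-coding gene whose symbol is Rab, 1 or 2 digits and at most 1 letter and 1 digit, matched by Ensembl identifier. The rule found 59 members among the 54532 genes of the count table, and all 59 had a row there. RNA sequencing libraries were made from microglia, the resident macrophages of the nervous system, sorted from the spinal cord of 8 female mice. Group WT holds 4 wild-type mice (numbers 503, 504, 506 and 527), and group KI holds 4 mice (513, 526, 528 and 549) that carry the knock-in labelled Cd11b-P2X4mCherryIN. P2X4, encoded by P2rx4, is an ion channel opened by extracellular ATP that is known to cycle between the cell surface and endosomes and lysosomes. Cd11b is a myeloid surface marker and mCherry a red fluorescent protein, and the labels say no more about the construct or about the cells in which it is active. Living cells that stained for CD11b, weakly for CD45 and not for Ly6C were collected, and each library comes from its own mouse. The labels give no treatment, disease, age or batch for either group.

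A Rab protein is inactive with GDP and active with GTP. Guanine nucleotide exchange factors (GEFs) load GTP and so activate it on a membrane, effectors read the active form, and GTPase-activating proteins (GAPs) switch it off. Newly made Rab proteins are carried by an escort protein to an enzyme that attaches lipid (prenyl) groups to cysteines at the end of the protein, and a GDP dissociation inhibitor takes inactive Rabs off the membrane again. In phagocytes such as microglia, early Rabs act on fresh phagosomes and endosomes, recycling Rabs return receptors to the surface, late Rabs drive fusion with lysosomes, and secretory Rabs move cargo through the endoplasmic reticulum (ER), the Golgi and secretory granules. The members were sorted by these roles into 7 early, 14 recycling, 12 late, 12 ER and Golgi, and 9 regulated exocytosis genes, with 5 others.

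The feature that ties the family to its membranes can be read in the end of the coding sequence. In the reference annotation, 59 of 59 members had at least 1 cysteine codon (TGC or TGT) among the last 4 codons before the stop, against 10.3% of 21488 other protein-coding genes. Of the members, 44 (74.6%) had 2 such codons, against 1.16% of the other genes, and the remaining 15 had 1, placed at the fourth codon from the end. The last 30 coding bases are shown for 10 members that are named below for their level or their difference. No RNA value was compared with these sequences. They are printed 5′ to 3′ with the cysteine codons of the last 4 codons in capitals.
Rab7: gccaaggcctccgcagaaagcTGCagtTGT
Rab8b: aagaccagtttcttccgcTGTtctctgctt
Rab1a: ccagtcaagcagtcaggtggaggcTGCTGC
Rab31: cagagcttgcaagccagccgtcggTGCTGC
Rab14: ccccaaccccagagagaaggcTGTggcTGC
Rab11a: aagccaaaggtgcagtgcTGTcagaacatc
Rab21: cagagcagcggagggtgcTGTtcctccggc
Rab22a: cagccatcggagccaaagcgaagcTGCTGC
Rab24: aacccttacttctacagcTGTTGTcatcac
Rab6b: cccccggccagcgagggcggcTGCtccTGT
Rab1a, Rab31 and Rab22a end in a pair of adjacent codons, and in Rab7, Rab14 and Rab6b another codon stands between the pair. Rab8b carries its only one at the fourth place from the end, the single-cysteine form. The pair of Rab24 is followed by 2 further codons, as in Rab5a, Rab5b and Rab5c. Rab11a and Rab21 each have a further cysteine codon just before the last 4, in lower case here.

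A promoter window of 250 bases before to 50 bases after the gene start was given by RefSeq (GRCm38.p6) for 48 of the 59 members and for 27025 genes in all. Microglia are rich in lysosomes, and many lysosomal genes carry GTCACGTGAC near their start, the motif called CLEAR that the factor TFEB binds. This palindrome, which reads the same on both strands and contains the E-box CACGTG, was present in the windows of 3 members (6.25%), against 0.37% of all genes with a window. The 27025 genes were not matched to the Rabs in expression or base content. The motif was one of 6 searched on both strands, and its matches are a description and not a binding site. The windows around it are shown because 2 of the 3 genes, Rab21 and Rab24, are among those with the smallest p-values below. These 2 differ in direction, with log2 fold changes (KI over WT) of 0.26 and −1.16, and Rab5a had −0.06. None of the 3 was called after adjustment, and a link of the motif to these values was not tested. The motif is in capitals with 10 bases on either side.
Rab5a: acccggggatGTCACGTGACttcggccccg
Rab21: gcccaccgcgGTCACGTGACgaggggtgtg
Rab24: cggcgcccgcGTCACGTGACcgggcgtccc
These stretches lie at chr17:53479127-53479156 (Rab5a, plus strand), chr10:115315604-115315633 (Rab21, minus strand) and chr13:55321961-55321990 (Rab24, minus strand). The motif begins 97 bases before the start of Rab5a, 32 bases before that of Rab21 and at the start of Rab24. CACGTG alone was in the windows of 6 members (12.5%, against 8.09% of all genes with a window), the PU.1 core GAGGAAGT in 2 (4.17% against 3.69%), TATAAA in 4 (8.33% against 15.7%), CCAAT in 26 (54.2% against 41.1%) and the GC box GGGCGG in 36 (75.0% against 38.2%).

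Total counts ranged from 45167483 to 54049801 reads per library, so a count of 0 allows up to 3 reads, or 0.0549 to 0.067 CPM. CPM stands for counts scaled by TMM to a common library size, and it follows 1 gene across libraries. To compare genes with each other, CPM was divided by the exon length in kilobases. This length sums all annotated exons of a gene, whether or not these cells use them. Ranks and shares between genes therefore depend on it. Reads carry no molecular identifiers, so such limits cover counting error only. One fragment may be counted once for each of its mates, and 68.9% to 70.8% of the counts from 1 to 9 were even, so the limit is too small where reads were counted in pairs. Of the 8 microglial marker genes all were abundant, with summed levels of 30256 to 34705 CPM in the WT mice and 29369 to 33218 in KI. Of the 8, 4 had an unadjusted p under 0.05 by edgeR (all genes: 7.79%, with 3.23% higher and 4.56% lower). Lower in mean in KI were 3 (Csf1r with a log2 fold change of −0.35, Tmem119 with −0.32 and Cx3cr1 with −0.23), and 1 was higher (Gpr34, 0.12). edgeR called 0 of the 8 (adjusted p from 0.507 to 0.982) and DESeq2 called 1 (all genes: 0.804%). Summed markers of neurons (1.6 to 18.6 CPM over the 8 libraries), border-associated macrophages (4.94 to 24.3) and monocytes (6.25 to 21.2) were low. Oligodendrocyte markers summed to 151 to 292 CPM, astrocyte markers to 320 to 397, of which Slc1a3 made up most, and neutrophil markers to 219 to 334, of which nearly all was Csf3r. Lymphocyte markers summed to 81.3 to 116.5 CPM, of which nearly all was Cd79b. Endothelial and pericyte markers summed to 37.0 to 52.7 CPM, of which Pecam1 made up most. No marker gene was at 0 in all 8 libraries. Cd3e, also on the lymphocyte list, and Ly6g averaged under 0.05 CPM in both groups. Erythroid and platelet markers ranged from 176 to 539 CPM in the WT mice and from 112 to 318 in KI. Among these erythroid and platelet markers, 7 of 7 genes tested had a log2 fold change below 0 (50.1% of all genes were above 0). Of the 7, 3 had an unadjusted p under 0.05 by edgeR (all genes: 4.56% lower in KI). A list of 22 dissociation and stress genes summed to 4639 to 11630 CPM in the WT mice and 4607 to 12096 in KI. Over the 11 lists, 2-sided exact permutation tests of the sums gave adjusted p-values from 0.63 to 0.83; the smallest p that 70 assignments allow is 0.0286 before adjustment, so with this many lists the tests could not show a difference in a single list. The part of these markers in the Rab values was not tested. P2rx4 averaged 793 ± 43.5 CPM in the WT mice and 859 ± 62.7 in KI (SD, n = 4), which does not check the genotype, since counts over a gene do not separate a knocked-in copy from the endogenous one.

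By level per kilobase of annotated exon, a few Rabs made up most of the family's transcripts. In bulk samples such as these, fewer cells that express a gene and less of its RNA per cell cannot be told apart. Between 0.533% and 0.583% of the reads of a library came from the 59 members. The 10 most abundant members held 74.8% of the summed level per kilobase, and 10 members were at 50 CPM per kilobase or more, 12 between 10 and 50, 17 between 1 and 10, and 20 under 1. At the top stood Rab7, the late endosome and phagosome Rab, with 189 CPM per kilobase (173 to 202 over the 8 libraries), and Rab8b, which carries cargo to the plasma membrane, with 180.1 (169 to 190). Their ranges overlapped, with Rab7 the higher in 7 of 8 libraries. Rab8b lay above the next, the ER to Golgi Rab Rab1a (117 CPM per kilobase, 105 to 135), without overlap. There followed Rab18 of lipid droplets and the ER (112), Rab31 of the trans-Golgi and early endosome (99.8), Rab11a of the recycling endosome (98.9), Rab14 of the Golgi to endosome route (86.7), Rab32 of lysosome-related organelles (81.5), Rab8a (65.2) and Rab1b (59.3). Each of these neighbours overlapped in range with the one before it. The order rests on the exon lengths. Rab14 had the most reads, with means of 1104 CPM in WT and 1252 in KI, over 13589 exon bases. Rab7 had 476 and 508 CPM over 2610 bases. Rab11a exceeded Rab14, and Rab32 exceeded Rab8a, in 8 of 8 libraries in spite of the overlap. Among the 17291 genes tested, Rab7 and Rab8b stood at the 98.8th percentile of level, and all 12 of the most abundant members at the 90.95th or above.

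**Figure D1:**
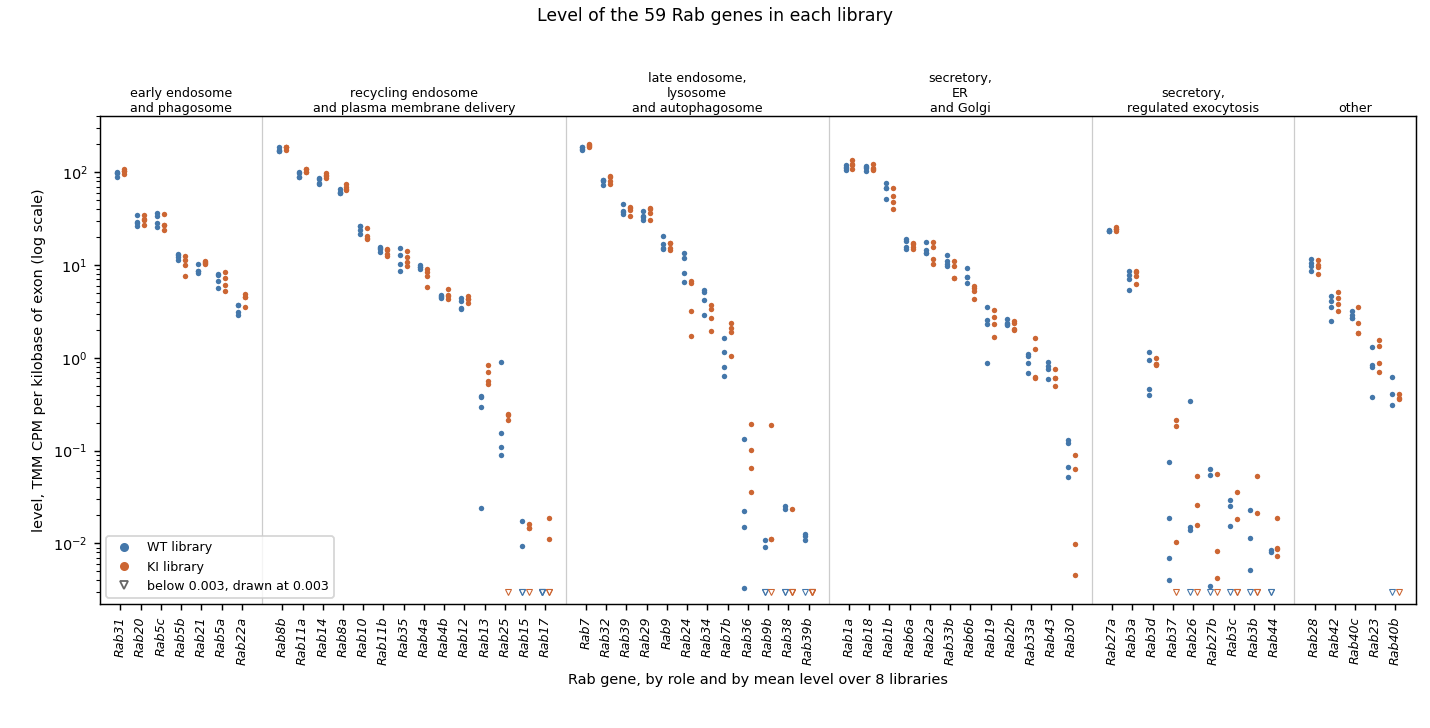
Level of each of the 59 Rab genes on a log axis, in TMM-scaled CPM per kilobase of exon, by role; each point is 1 library (WT left, KI right), and triangles are values below 0.003. Members of every endosomal and Golgi role reach 50 or more, from Rab7 at a mean of 189 downwards, while the exocytosis group falls from Rab27a at 24.0 to members near 0.

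The role groups differed in how they were filled. The recycling group held 33.6% ± 0.945 of the family's summed level in WT and 34.8% ± 0.538 in KI (SD, n = 4). The late group held 25.6% ± 0.266 and 25.7% ± 0.967, and the ER and Golgi group 24.1% ± 0.552 and 22.9% ± 1.3. The early group held 13.2% ± 0.58 and 13.1% ± 0.254, and regulated exocytosis only 2.2% ± 0.121 and 2.27% ± 0.11. The summed level of the ER and Golgi group was 335 to 359 CPM per kilobase in WT and 318 to 365 in KI, with overlapping ranges. The summed level of the recycling group was 461 to 502 in WT and 506 to 521 in KI, so its lowest KI library lay just above its highest WT library. In each of the other role groups the ranges overlapped. The recycling sum rests mostly on the abundant Rab8b, Rab11a, Rab14 and Rab8a. Among the 1564 genes at least as abundant per kilobase as the member in place 12, 68.8% had a log2 fold change above 0. The role sums are over chosen members, and no test was made of them.

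Close copies within the family were used unequally. Of the Rab8 pair, Rab8b made up 73.9% ± 1.11 of the level per kilobase in WT and 73% ± 1.65 in KI, and of the Rab11 pair, Rab11a made up 86.3% ± 0.598 and 88.3% ± 0.936. Rab2a made up 85.8% ± 0.826 and 85.7% ± 3.56 of the Rab2 pair, Rab33b 92.2% ± 1.54 and 89.4% ± 5.75 of the Rab33 pair, and Rab7 at least 98.8% of Rab7 and Rab7b in each library. Rab2b may be undercounted here, since 64% of its exon bases overlap other gene models and a read on both is left out. Among the 3 Rab5 genes, regulators of early endosome fusion, Rab5c led with 61.2% ± 4.96 and 62.1% ± 5.28, before Rab5b and Rab5a. Rab3a held 90.1% ± 5.82 and 89.3% ± 2.67 of the 4 Rab3 genes, which are best known from synaptic vesicles. Rab1a took 63.2% ± 3.27 of the Rab1 pair in WT and 70.1% ± 3.77 in KI, with overlapping ranges (59.2% to 67.0% and 66.7% to 75.4%). In the Rab6 pair, Rab6a held 67.3% to 70.5% in WT and 72.2% to 79.9% in KI, so every KI library had the smaller part from Rab6b. Rab11a likewise held 85.5% to 86.9% of its pair in WT and 87.1% to 89.1% in KI. Rab11b shares 13.6% of its stretches of 50 bases with other genes, first of all the pseudogene Rab11b-ps2. That pseudogene was listed at 28.2 ± 1.09 CPM in the WT mice and 27.9 ± 1.89 in KI. Of the exon bases of Rab6a, 19% overlap Mrpl48, and a read on both is left out. The shares were not tested, and no rate over other gene pairs was computed.

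The design implies 1 comparison: how the knock-in females compare with wild-type females. Of the 59 members, 49 had enough reads to be tested. By edgeR's quasi-likelihood test with Benjamini-Hochberg adjustment, 0 members were called, as were 0 of all 17291 genes tested (0%). At an unadjusted p under 0.05 there were 7 of 49 members (14.3%) and 1347 of all genes (7.79%). Higher in KI among these 7 were the means of Rab21, Rab22a, Rab14, Rab11a and Rab7b (all genes: 559, or 3.23%), and lower were those of Rab6b and Rab24 (all genes: 788, or 4.56%). The count of 7 was 3 without WT 506, 4 without WT 527 and 5 without KI 526, and lay between 6 and 8 without each of the other libraries. DESeq2 called 1 member, Rab6b, among 139 genes (0.804% of those tested) with the same filter and among 248 (0.666% of 37254) without it. edgeR's likelihood ratio test called 42 genes and limma-voom 0, with no member among them. The median log2 fold change of the 49 was 0.02, against 0.00 for all genes, with 26 members above 0 and 23 below (50.1% of all genes above).

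The intervals limit how large a shift of most abundant members could be. For 28 of the 49 (57.1%) the 95% interval of the fold change stayed within 1.5-fold either way, against 38.6% of all genes. Among genes with a mean of 5 CPM or more, this held for 28 of 38 Rabs and for 6651 of 10171 genes. In 4 members the libraries of the 2 groups did not overlap (all genes: 855, or 4.94%). Rab21, Rab11a and Rab13 were higher in every KI library (all genes: 405, or 2.34%), and Rab6b was lower (450, or 2.6%). Of the 12 most abundant members, 11 had a log2 fold change above 0, from −0.32 for Rab1b to 0.18 for Rab14. Among the 1564 genes of at least the same level per kilobase, 68.8% were above 0, with a median of 0.06.

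**Figure D2:**
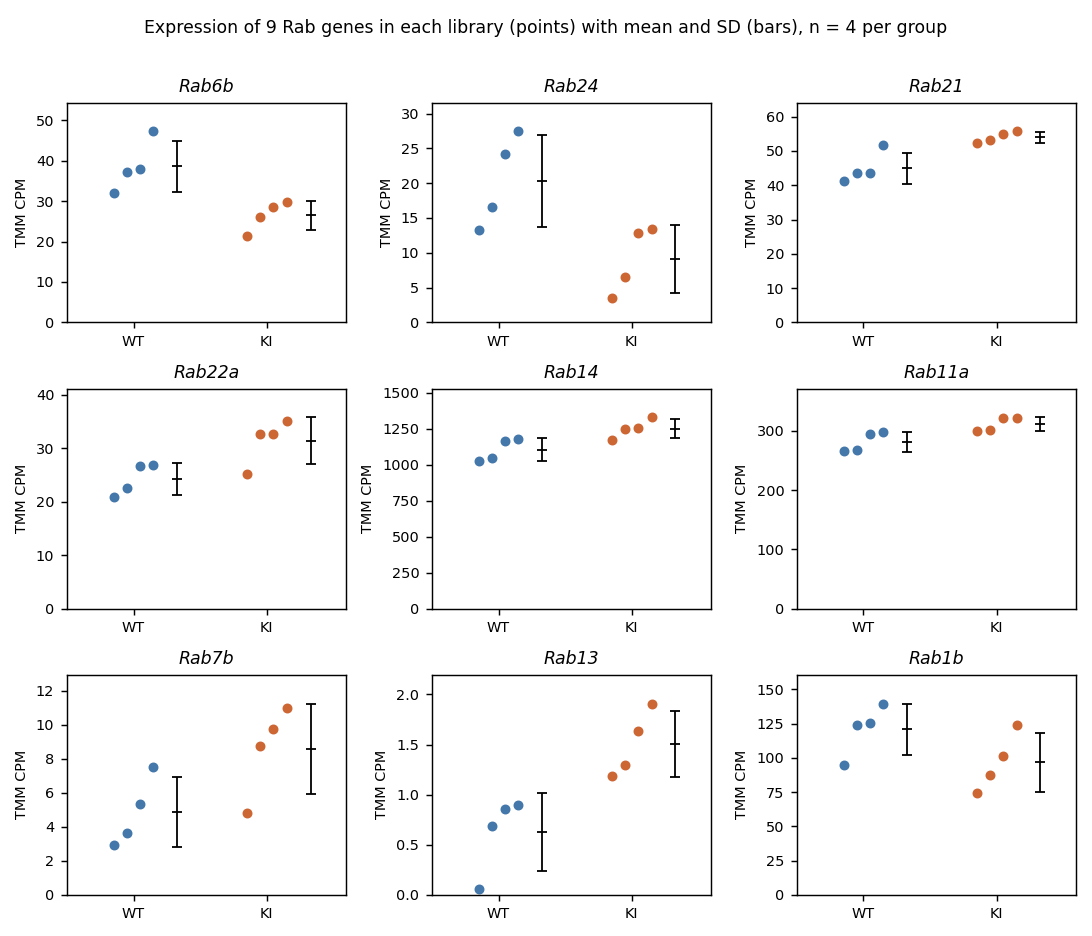
CPM of 9 Rab genes in each of the 4 WT and 4 KI libraries (points), with the mean and SD beside them; every axis starts at 0. Rab6b points of KI lie below those of WT, those of Rab21, Rab11a and Rab13 lie above, and in the other 5 panels the groups overlap.

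The 7 early Rabs were all tested, with 4 fold changes above 0 and 3 below. Rab21 (ENSMUSG00000020132, mm10 chromosome 10, 115287084 to 115315594, minus strand), which guides integrin uptake and early endosomes, was read at 51.6, 43.5, 43.7 and 41.3 CPM in the WT mice and 53.1, 55.7, 52.4 and 55 in KI. The 4 KI libraries lay close together, just above the highest WT library. The log2 fold change came to 0.26 (SE 0.10, 95% interval 0.05 to 0.48, edgeR adjusted p = 0.584). Rab22a (ENSMUSG00000027519, chromosome 2, 173659760 to 173707343, plus strand), active between early endosome and Golgi, was read at 26.8, 20.8, 26.7 and 22.6 CPM in the WT mice and 32.7, 35.1, 32.7 and 25.1 in KI. In this gene 3 KI libraries exceeded all WT libraries and KI 549 did not. The log2 fold change was 0.37 (SE 0.14, 0.06 to 0.69, edgeR adjusted p = 0.598). Rab31, the most abundant early member, had 342.9 to 388.8 CPM in the WT mice and 369.8 to 411.9 in KI (log2 fold change 0.07, 95% interval −0.06 to 0.21). Rab20, a phagosome maturation Rab, had 37.0 to 48.1 and 37.3 to 48.3 CPM (0.06, −0.20 to 0.32). Rab5c had 56.1 to 80.1 and 52.3 to 77.3 CPM (−0.13, −0.45 to 0.20), Rab5b a log2 fold change of −0.26 (−0.58 to 0.06) and Rab5a one of −0.06 (−0.44 to 0.32). None of these 7 passed the adjusted test by edgeR.

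Of the 14 recycling and surface delivery Rabs, 12 were tested, 7 above 0 and 5 below. Rab14 (ENSMUSG00000026878, chromosome 2, 35180205 to 35201120, minus strand), the member with the most reads, had 1165, 1179, 1048 and 1024 CPM in the WT mice and 1171, 1251, 1330 and 1256 in KI. KI 513 fell between the WT libraries and the other 3 KI libraries lay above them. The log2 fold change was 0.18 (SE 0.06, 0.04 to 0.32, edgeR adjusted p = 0.573). Rab11a (ENSMUSG00000004771, chromosome 9, 64715299 to 64737758, minus strand) had 294.3, 265.2, 267.0 and 298.2 CPM in the WT mice and 320.9, 300.2, 301.1 and 321.2 in KI. The groups were separate by a narrow margin, with a log2 fold change of 0.14 (SE 0.06, 0.01 to 0.28, edgeR adjusted p = 0.629). Rab8b had 798.5 to 880.2 CPM in the WT mice and 825.4 to 898.1 in KI (log2 fold change 0.08, −0.04 to 0.19). Rab8a, its copy, had 280.4 to 311.2 and 299.2 to 349.3 CPM (0.14, −0.01 to 0.29). Rab10, a Rab of surface delivery, had a log2 fold change of −0.23 (−0.47 to 0.01), and Rab11b one of −0.11 (−0.30 to 0.07). Rab4a, of the fast recycling route, had 15.9 to 17.4 CPM in the WT mice and 10.1 to 16.0 in KI (−0.30, −0.67 to 0.06). Rab4b (0.06), Rab12 (0.17) and Rab35 (0.00) all had intervals that span 0. Rab13, a Rab of tight junctions, was near the detection limit, with 0.0549, 0.859, 0.685 and 0.893 CPM in the WT mice and 1.63, 1.19, 1.91 and 1.30 in KI. Its 4 KI libraries lay above all 4 WT libraries, with a log2 fold change of 1.27 (SE 0.69, −0.27 to 2.81, edgeR adjusted p = 0.721). Rab25, an epithelial copy of Rab11, stayed at or under 1.51 CPM in each library (0 to 1.51).

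Of the 12 late endosome, lysosome and autophagosome Rabs, 9 were tested, 6 above 0 and 3 below. Rab7 (ENSMUSG00000079477, chromosome 6, 87999106 to 88045270, minus strand) had 451.2, 492.1, 467.0 and 494.7 CPM in the WT mice and 518.5, 498.7, 526.2 and 489.5 in KI. In KI 3 libraries exceeded all WT libraries and KI 549 fell between them, with a log2 fold change of 0.09 (SE 0.05, −0.03 to 0.21, edgeR adjusted p = 0.737). Rab7 shares 12.7% of its 50-base words with other genes, first of all the pseudogene Rab7-ps1, which was listed at 39.8 ± 2.09 CPM in the WT mice and 42.1 ± 2.21 in KI (SD, n = 4). Rab32 had 170.0 to 193.1 CPM in the WT mice and 177.0 to 211.7 in KI (log2 fold change 0.07, −0.10 to 0.24). Rab39, a phagosome and autophagy Rab of macrophages, had 106 to 134 and 99.7 to 125 CPM, with a fold change of 0.00 (−0.22 to 0.22) that was below 0 in 12 of the 20 alternatives. Rab29, a partner of the kinase LRRK2, had a log2 fold change of 0.14 (−0.12 to 0.39), and Rab9, which returns receptors to the Golgi, one of −0.07 (−0.37 to 0.22).

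The largest difference in size among the members with at least 5 CPM was in Rab24 (ENSMUSG00000034789, chromosome 13, 55319743 to 55321946, minus strand), a Rab of autophagosomes. It was read at 24.2, 16.5, 27.4 and 13.2 CPM in the WT mice and 6.5, 12.9, 13.5 and 3.47 in KI. The lowest WT library (13.2) fell under the highest KI library (13.5), and the spread within each group was wide. The log2 fold change was −1.16 (SE 0.41, −2.07 to −0.26, edgeR adjusted p = 0.572, DESeq2 adjusted p = 0.0967). Of the exon bases of Rab24, 62.4% overlap Prelid1 on the opposite strand. In these unstranded counts a read that falls on both genes is left out, so the value of Rab24 rests on the rest of its exons. Prelid1 itself averaged 22.9 ± 3.18 CPM in the WT mice and 22.5 ± 4.8 in KI (log2 fold change −0.03). Rab7b, which acts from late endosome to Golgi, was read at 5.35, 7.54, 3.65 and 2.94 CPM in the WT mice and 4.83, 9.76, 11 and 8.76 in KI. KI 513 fell within the WT range, and the log2 fold change was 0.82 (SE 0.35, 0.05 to 1.59, edgeR adjusted p = 0.618). Rab34, a Rab of lysosome positioning and cilia, had 6.83 to 13 CPM in the WT mice and 4.66 to 8.91 in KI (−0.59, −1.18 to 0.01). Rab36 was at 0.0202 to 1.21 CPM over the 8 libraries.

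All 12 ER and Golgi Rabs were tested, 4 above 0 and 8 below, with a median log2 fold change of −0.09. Rab6b (ENSMUSG00000032549, chromosome 9, 103111787 to 103185276, plus strand), a Golgi Rab known mainly from neurons, was read at 47.3, 37.3, 32.1 and 37.8 CPM in the WT mice and 21.5, 29.8, 28.5 and 26.2 in KI. All 4 KI libraries lay below all 4 WT libraries. The log2 fold change was −0.55 (SE 0.15, −0.88 to −0.21), with an edgeR adjusted p of 0.507. DESeq2 gave adjusted p-values of 0.0452 with the filter and 0.0406 without it, and over all alternatives the adjusted p ran from 0.0406 to 0.864. The 8 neuronal markers summed to 5.36 to 12.2 CPM in the WT mice and 1.6 to 18.6 in KI, and their part in the value of Rab6b was not tested. Rab6a, the more abundant copy, had 55.2 to 72.0 CPM in the WT mice and 54.9 to 65.1 in KI (−0.07, −0.31 to 0.17).

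Rab1a had 398.9 to 458.5 CPM in the WT mice and 414.4 to 514.5 in KI (log2 fold change 0.12, −0.04 to 0.29). Rab1b (ENSMUSG00000024870, chromosome 19, 5099205 to 5107072, minus strand), with the same step of traffic, had 94.8, 124, 126 and 139 CPM in the WT mice and 102, 87.1, 74.0 and 124 in KI. The groups overlapped, and the log2 fold change was −0.32 (SE 0.16, −0.68 to 0.04, edgeR adjusted p = 0.689). Rab18 had 230.5 to 262.2 CPM in the WT mice and 237.8 to 280.5 in KI (0.02, −0.14 to 0.17). The Golgi Rab Rab33b, which is also linked to autophagy, had a log2 fold change of −0.30 (−0.67 to 0.06). Rab2a and Rab2b, of ER to Golgi traffic, had −0.08 and −0.11, with intervals that span 0. Rab19 (0.12), Rab33a (0.15), Rab43 (−0.31) and Rab30 (−1.14) averaged under 5 CPM, and their intervals all span 0. The count of Rab24, given above, and those of Rab43, Rab2b and Rab4b are uncertain. Of the exon bases of Rab43, Rab2b and Rab4b, 75.4%, 64% and 65% overlap other gene models. A read that falls on both is left out of the count.

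Regulated exocytosis was the most sparsely filled role, with 4 of 9 members tested. Rab27a, which docks secretory lysosomes, was the main one, at 89.8, 90.3, 91.5 and 91.6 CPM in the WT mice and 96.1, 94.7, 100.2 and 90.4 in KI. Its WT libraries lay within 2 CPM of each other and 3 KI libraries lay above them (log2 fold change 0.07, −0.08 to 0.22, edgeR adjusted p = 0.873). Rab3a had 11.9 to 19 CPM in the WT mice and 14.1 to 19.3 in KI (0.12, −0.28 to 0.51), and Rab3d, a Rab of granules, 1.65 to 4.81 and 3.47 to 4.18 CPM (0.27, −0.56 to 1.09). Rab3c was tested at 0 to 0.433 CPM (−0.33, −3.35 to 2.68). Among the 5 other members, Rab28 had 39.3 to 52.6 CPM in the WT mice and 36.7 to 51.0 in KI (−0.05, −0.34 to 0.23). Rab23, an inhibitor of hedgehog signalling, had 3.13 to 10.9 and 5.86 to 12.8 CPM (0.42, −0.41 to 1.26). Rab40c, part of a ubiquitin ligase, had 8.37 to 9.94 and 5.72 to 10.9 CPM (−0.26, −0.79 to 0.26). Rab42 (0.16, −0.51 to 0.83) and Rab40b (−0.24, −3.06 to 2.57) were lower in level and their intervals span 0.

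The 10 members that were not tested had 0 to 61 reads per library. Rab17 had 0 to 2 reads, Rab38 and Rab39b 0 to 2, Rab15 0 to 4, Rab44 0 to 5 and Rab3b 0 to 10. Rab9b had 0 to 2 reads in 7 libraries and 40 in KI 549, and Rab26 had 0 to 8 in 7 libraries and 49 in WT 506. Rab37 ranged from 0 to 61 reads and Rab27b from 0 to 34. Several of these are known from epithelia, neurons or melanocytes. No member was without reads in all 8 libraries, and 46 had a read in each of them.

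**Figure D3:**
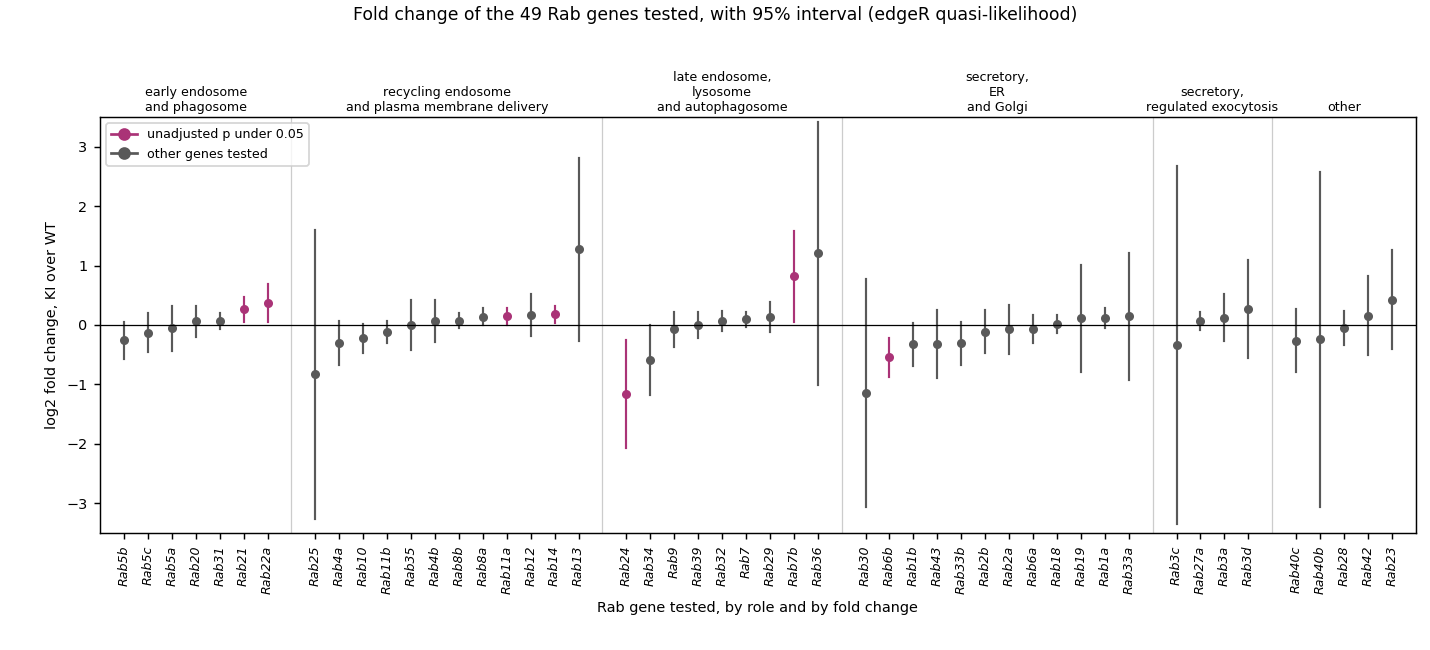
Log2 fold change of KI over WT for the 49 Rab genes tested, by role, with the 95% interval of edgeR's quasi-likelihood test as a line. The 7 genes with an unadjusted p under 0.05 are coloured; abundant members such as Rab7 (0.09) have short intervals near 0 and sparse ones such as Rab3c long ones.

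The GC content of the annotated transcripts moved with the fold changes of the whole table and of the Rabs. It was taken over all GENCODE transcripts of a gene, so an exon shared by several transcripts counts more than once. Across genes with at least 5 CPM, Pearson's r between GC and log2 fold change was −0.28 (Spearman −0.30) over 10169 genes and −0.34 (Spearman −0.30) over 38 Rabs. Genes are not independent replicates and share the 8 libraries, so these are descriptions. All genes under 45% GC had a median log2 fold change of 0.07 (2764 genes), and those over 55% one of −0.11 (1774 genes). The 8 Rabs over 55% had a median of −0.19, with 3 above 0, and include Rab24 (55.9%), Rab1b (56.8%) and Rab34 (56.7%). The 11 Rabs under 45% had a median of 0.00, with 6 above 0. Rab6b had 53.2% GC, and Rab21, Rab22a, Rab14 and Rab11a had 46.2%, 48.2%, 42.9% and 42.6%. With each library's trend on GC removed, Pearson's r was −0.06 over all genes and −0.18 over the Rabs, and Spearman's rho −0.04 and −0.03. In that fit 6 members had an unadjusted p under 0.05.

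**Figure D4:**
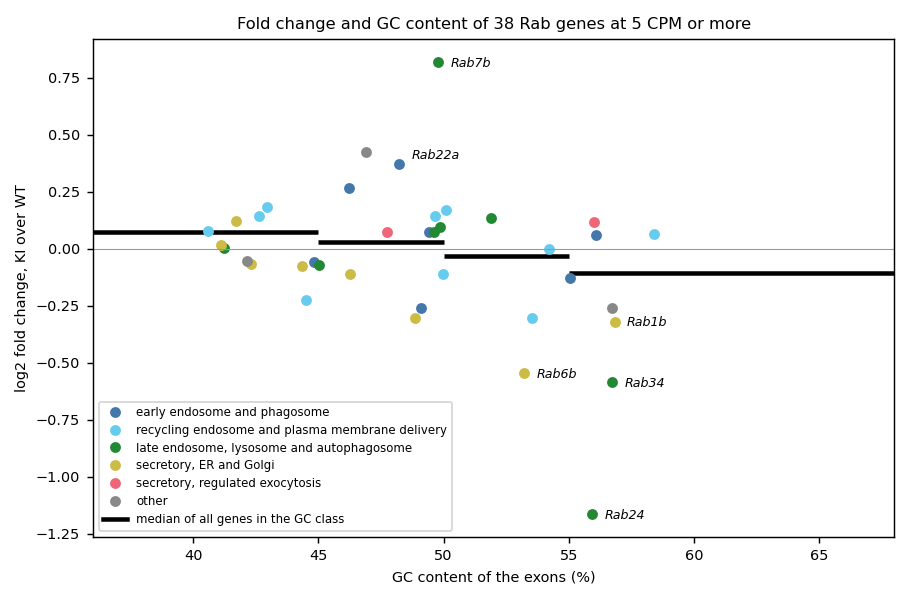
Log2 fold change (KI over WT) against GC content in percent for 38 Rab genes that average 5 CPM or more, coloured by role. GC content is over all annotated transcripts of a gene, although the axis names the exons. Black lines are medians of all genes in 4 GC classes. The black lines step down from 0.07 under 45% to −0.11 over 55%, and Rab24, Rab34 and Rab1b lie at the GC-rich end below them.

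The proteins that load, switch off and read the Rabs were described in 4 lists with 150 genes, of which 137 were tested. By edgeR's quasi-likelihood test 0 were called, and 16 (11.7%) stood at an unadjusted p under 0.05, of which 6 had the higher mean in KI and 10 the lower (all genes: 7.79%, with 3.23% higher and 4.56% lower). That count was 10 without WT 506, WT 527 or KI 526. DESeq2 called 3 (all genes: 0.804%), and the likelihood ratio test and limma-voom called 0. Of the 137, 52 fold changes were above 0 and 85 below, with a median of −0.09 against 0.00 for all genes, which moved to −0.04 without WT 506 and to −0.05 without WT 527.

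Among the 9 genes of GDP dissociation and prenylation, 2 were above 0 and 7 below. Rabggta (ENSMUSG00000040472, chromosome 14, 55715416 to 55722263, minus strand) encodes the alpha subunit of the enzyme that attaches the prenyl groups to the cysteines shown above. It was read at 25.3, 33.2, 39.1 and 30.8 CPM in the WT mice and 17.1, 22.2, 23.3 and 21.8 in KI, so that all KI libraries lay below all WT libraries. The log2 fold change was −0.61 (SE 0.16, edgeR adjusted p = 0.507, DESeq2 adjusted p = 0.0293). Its partner subunit Rabggtb averaged 30.2 and 27.7 CPM (−0.12), and the escort proteins Chm and Chml had log2 fold changes of 0.04 and −0.04. The GDP dissociation inhibitor Gdi2 averaged 866 CPM in the WT mice and 855 in KI (−0.02). The prenylated Rab acceptor Rabac1 had 101 ± 2.68 and 90.6 ± 9.27 CPM (SD, n = 4; −0.15), and the nucleotide-free chaperone Rabif 60.3 ± 8.48 and 53.7 ± 10.2 (−0.16). By edgeR none of the genes named from this list passed the adjusted test, and DESeq2 called Rabggta alone among the 9.

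Of the 47 activators, 46 were tested, 20 above 0 and 26 below. At an unadjusted p under 0.05 by edgeR there were 4 higher and 4 lower in mean in KI (all genes: 3.23% and 4.56%). Without overlap there were 3 higher and 3 lower (all genes: 2.34% and 2.6%). St5, a DENN-domain activator of Rab13 (chromosome 7, 109523911 to 109703605, minus strand), was read at 27.3, 28.7, 28.7 and 26.4 CPM in the WT mice and 19.9, 22.5, 19 and 20.02 in KI. The groups were apart by 3 CPM or more, with a log2 fold change of −0.45 (SE 0.11, edgeR adjusted p = 0.507, DESeq2 adjusted p = 0.0114). Dennd5a, an activator in the Rab6 and Rab39 network, was read at 73.8, 63.2, 71.7 and 72.2 CPM in the WT mice and 95.7, 99.4, 81.7 and 79.5 in KI, also without overlap (0.34, SE 0.10, edgeR adjusted p = 0.517). Rab3il1, an activator of the Rab8 branch, had 539.8, 537.8, 606.5 and 601.1 CPM in the WT mice and 467.2, 400.8, 458.8 and 533.0 in KI. Here too the KI libraries were the lower ones (−0.30, SE 0.09, edgeR adjusted p = 0.527). Dennd4a, an activator of Rab10, averaged 250.3 ± 18.5 CPM in the WT mice and 214 ± 15.0 in KI, without overlap (−0.23, SE 0.07, edgeR adjusted p = 0.554). Besides Dennd5a, the higher means at an unadjusted p under 0.05 were those of Trappc2 (log2 fold change 0.28) and Trappc1 (0.19), subunits of the TRAPP complexes that activate Rab1 and Rab11, both without overlap, and of Ccz1 (0.27), part of the activator of Rab7. Trappc5, another TRAPP subunit, had the lower mean in KI at the same threshold (−0.34), with overlapping groups. Trappc2, Trappc1, Ccz1 and Trappc5 were named after their values were seen.

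Of the 37 GAPs, 35 were tested, 12 above 0 and 23 below. Tbc1d20, which switches off Rab1 and Rab18 (chromosome 2, 152293828 to 152313996, plus strand), was read at 31.7, 30.1, 26.6 and 25.8 CPM in the WT mice and 21.03, 19.4, 22.3 and 19.4 in KI. The 2 groups did not overlap, and the log2 fold change was −0.48 (SE 0.12, edgeR adjusted p = 0.507, DESeq2 adjusted p = 0.0189). Tbc1d10b averaged 14.9 ± 2.25 CPM in the WT mice and 10.9 ± 1.76 in KI (−0.46), Tbc1d22a 55.4 ± 10.4 and 43.0 ± 2.31 (−0.37), and Evi5, a GAP linked to Rab11, 45.4 ± 4.37 and 53.9 ± 3.95 (0.25; SD, n = 4 each), with edgeR adjusted p-values of 0.598, 0.598 and 0.604. Of the 57 effectors, 47 were tested, 18 above 0 and 29 below. Rbsn, a Rab4 and Rab5 effector of early endosomes, was read at 63.9, 50.3, 59 and 60.2 CPM in the WT mice and 55.1, 53.1, 32.6 and 36.1 in KI. KI 528 and KI 549 lay below all others, and KI 513 and KI 526 lay within the WT range (−0.40, SE 0.17, edgeR adjusted p = 0.631). Rabep2, of the Rab5 effector complex, had 25.4 ± 2.43 and 20.1 ± 3.28 CPM (−0.33, edgeR adjusted p = 0.631). Rabl6, a Rab-like GTPase kept in this list, had a log2 fold change of −0.25, and the early endosome protein Ankfy1 one of −0.19. The GC content of Rabggta, St5, Tbc1d20 and Tbc1d10b was 56.6%, 53.3%, 53.3% and 56.5%, in the classes where all genes had medians of −0.03 and −0.11. With the GC trend of each library removed, their log2 fold changes were −0.53, −0.40, −0.43 and −0.39.

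**Figure D5:**
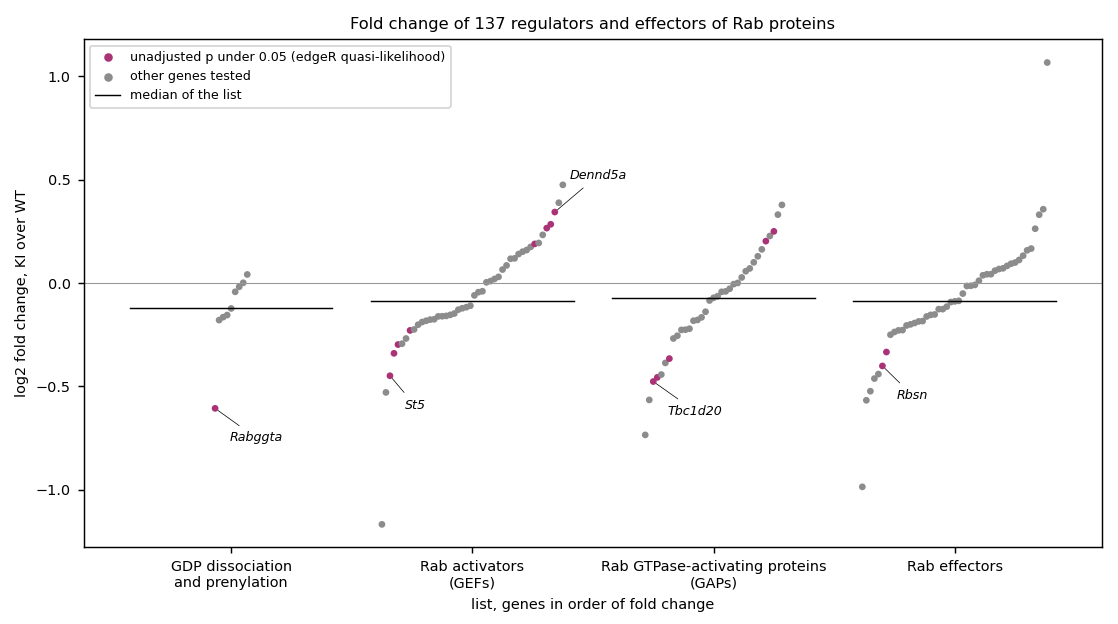
Log2 fold change (KI over WT) of the 137 regulators and effectors tested, in 4 lists, with genes in order of fold change and the median of each list as a line. The lines lie between −0.12 and −0.07, and the 16 genes with an unadjusted p under 0.05 are coloured.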

How the data were processed

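RNA-seq of 8 libraries was analysed. The submitters' processing notes list limma, edgeR, R 3.6.0, the counter featureCounts 2.0.3, the aligner STAR 2.7.5c and SAMtools 1.9, with build mm10. The deposited counts are reads per gene over exons from paired-end input without strand, per the file headers; no header option counts a pair once or assigns a read to overlapping genes. The authors also deposited FPKM values and a normalized signal, with no tool stated. The signal gave whole reads (tolerance 0.01 reads) equal to the counts for 100% of values in 31441 genes. The table holds 8 further columns of other samples, which were not used.

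Counts were filtered with filterByExpr (minimum count 10, minimum total 15), scaled by TMM and tested with edgeR 4.0.16 (quasi-likelihood, group as the only term, adjusted p under 0.05). Alternatives were DESeq2 1.42.0, limma 3.58.1 (voom, and log2(FPKM + 1)), other scaling, filters, GC and length trends, and leaving out each library; the GC trends, the recovered reads and DESeq2 without the filter were added after seeing the data. The fits were tested on simulated data. No 2 libraries of a group held the same library (their chi-square per degree of freedom ran from 28.5 to 65.0). The GENCODE annotation of mm10 gave symbols for 54495 of the 54532 identifiers, and also the coding ends (principal transcript).

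The members, role groups, regulator and marker lists and motifs were chosen with earlier results of these data known. Named genes are, per role, the 3 most abundant per kilobase, the 2 with the smallest p, those called by edgeR or DESeq2 and those without overlap; per regulator list, up to 4 with the smallest p and at least 5 CPM. One regulator that this rule names is not reported here. The other members are given for completeness. Fold changes are KI over WT.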

Additional observations from a re-analysis of the deposited data

Results flagged for a closer look

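In groups of 4 libraries, the distance of the highest or lowest value to the next was taken relative to the whole range. This was done for 104 quantities in 206 groups, and 16 values stood apart. The cut-off flags by chance about 1 in 20 groups of normally distributed values, here 10. That rate does not hold for groups of a few reads, so 16 cannot be read against 10. Most concern members close to 0 reads, where 1 library holds or lacks a few reads. Rab25 was at 1.51 CPM in WT 506 (0.15 to 0.258 in the other WT libraries) and at 0 in KI 513 (0.355 to 0.414). Rab26 was at 0.987 CPM in the same WT 506 (0 to 0.0429) and Rab36 at 0.816 in WT 504 (0.0202 to 0.139). Rab9b was at 0.742 CPM in KI 549 (0 to 0.0447), Rab38 at 0.0371 in KI 549 (0 in the others), Rab44 at 0.0942 in KI 526 (0.0371 to 0.0447) and Rab27b at 0.603 in KI 526 (0.0186 to 0.0888). Rab40b was at 0 in KI 513 (0.716 to 0.816), Rab15 at 0 in KI 526 (0.0666 to 0.0742) and Rab39b at 0 in WT 527 (0.0366 to 0.0429).

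Rab27a held 99.8% of the Rab27 pair in KI 526, against 99.97% to 99.99% in the other KI libraries, and Rab4a held 65.5% of the Rab4 pair in WT 504, against 67.8% to 68.1%. Among the marker sums, neuronal markers were high in WT 504 (12.2 CPM, others 5.36 to 6.15), monocyte markers were high in KI 528 (21.2, others 6.82 to 8.93) and astrocyte markers were low in KI 549 (320 CPM, others 380.4 to 387.9). Their part in the Rab values was not tested.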

How the results depend on the processing

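The count of genes called was 0 by edgeR's quasi-likelihood test and under each library left out, and it was 139 with DESeq2, 248 with DESeq2 without the filter on low counts, 42 with edgeR's likelihood ratio test and 1 with limma on log2(FPKM + 1). Among the Rabs DESeq2 called 1 gene with and 1 without the filter, and among the regulators 3 and 3. The median of the Rabs tested ran from 0.01 to 0.06. On the scale of the deposited FPKM, the level of Rab7 was 203 in place of 189 CPM per kilobase. Of 820 alternative values for 41 named genes, 794 kept their direction and their side of the threshold, 8 gained a call (Rab6b, Rabggta, St5 and Tbc1d20 with DESeq2) and 18 changed sign, all in genes near 0. The main fit called 0 genes, so no value could lose a call. The reads recovered from the normalized signal equal the counts, so that alternative could only repeat the main fit. Rab39 was at −0.00251 without the filter, −0.00222 with halved counts, −0.0101 on log2(FPKM + 1), −0.0594 with the GC trend and −0.0488 with GC and length trends removed, −0.00106 by DESeq2 without the filter, and −0.0421 to 0.076 with a library left out. Rab18 was at −0.0481 and −0.0497 in the same settings, and −0.0407 to 0.0452 with a library left out; Rab28 ran from −0.131 to 0.024. The cause was not tested. No paired analysis was possible because the 2 groups share no mouse number. With a library left out, the exact test of the marker sums cannot reach the threshold. The number of libraries limits the precision of each fold change.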
